A study of Homo sapiens with 6 samples.

Results

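Lysyl oxidases are secreted copper enzymes that oxidise lysines of collagen and elastin to aldehydes, from which the cross-links that stiffen the extracellular matrix form without further enzymes. They carry a cofactor made from a tyrosine of their own chain, and each pairs a conserved catalytic domain at the end of the protein with a variable region before it: a propeptide in LOX and LOXL1, and scavenger receptor domains in LOXL2, LOXL3 and LOXL4. Osteoblasts depend on these enzymes to build collagen that can mineralise, and in tumours they have been studied for their effect on matrix stiffness and spread. The family was defined by name, as the rows LOX, LOXL1, LOXL2, LOXL3 and LOXL4 of the deposited expression table. All 5 members were found among its 16376 genes, and all 5 passed the filter on low values and were tested.

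RNA was sequenced from HOS, a human osteosarcoma cell line recorded as wild type in every sample, in 3 libraries of cells given Agrimol B for 24 h and 3 libraries of control cells with no treatment listed. Agrimol B is a phloroglucinol derivative of the agrimony plant; the sources used here give neither its dose nor whether controls received the solvent. HOS is 1 cell line, and nothing in the labels says that the replicates were separate cultures, so p-values measure only how far these libraries differ, and that spread may be technical. The values are FPKM, in which fragment numbers are divided by the length of the transcript and by the size of the library.

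Between 11993 and 12134 genes reached 1 FPKM per library, and depths relative to the first control library ran from 0.99 to 1.19. Absolute depth, and so the counting error of any one value, is unknown. Of 8 osteoblast markers, 6 had values in the deposited data, and SP7 and IBSP had none. RUNX2, ALPL, SPP1, COL1A1 and SPARC were detected, and the late osteoblast gene BGLAP was near 0 (0.146 ± 0.081 FPKM in controls, SD, n = 3). Of 5 blood markers only 2 had values. These 2 and the endothelial markers stayed under 1 FPKM on average in both groups. The epithelial marker EPCAM was present in every library (12.8 to 14.7 FPKM). The other 4 epithelial markers (CDH1, KRT5, KRT14 and KRT19) summed to 0.337, 0.475 and 1.85 FPKM in the control libraries and to 0.249, 3.92 and 19.4 FPKM with Agrimol B, so that Agrimol B replicate 3 stood apart. Of the 5 mesenchymal markers, VIM, COL1A2, PDGFRB and THY1 were lower with Agrimol B (PDGFRB 4.21-fold, from 18.2 ± 1.02 to 4.32 ± 0.165 FPKM) and CDH2 was not called. Of the 5 osteoblast markers tested, ALPL, SPARC and COL1A1 were 2.15-fold, 1.82-fold and 1.43-fold lower. SPP1 was 2.18-fold higher and RUNX2 was not called. What part these shifts have in the members' changes was not tested.

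With Agrimol B, LOX was 3.34-fold higher, LOXL1 was 2.16-fold lower and LOXL4 was 2.47-fold lower. LOXL2, the most abundant member, was 1.16-fold lower, and LOXL3 varied too much between libraries to be called. In all, 4 of the 5 members changed at an adjusted p under 0.05, 1 higher and 3 lower. Over all 12143 genes tested the share called was 52.0%, with 30.6% higher and 21.4% lower, so a call by itself does not set the family apart. The sizes differed more: among all tested genes ordered by the size of the log2 difference, LOX stood at place 90, LOXL4 at 392, LOXL1 at 400, LOXL3 at 3485 and LOXL2 at 7308. In a bulk sample, fewer cells that express a gene and less of its RNA per cell cannot be told apart.

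**Figure D1:**
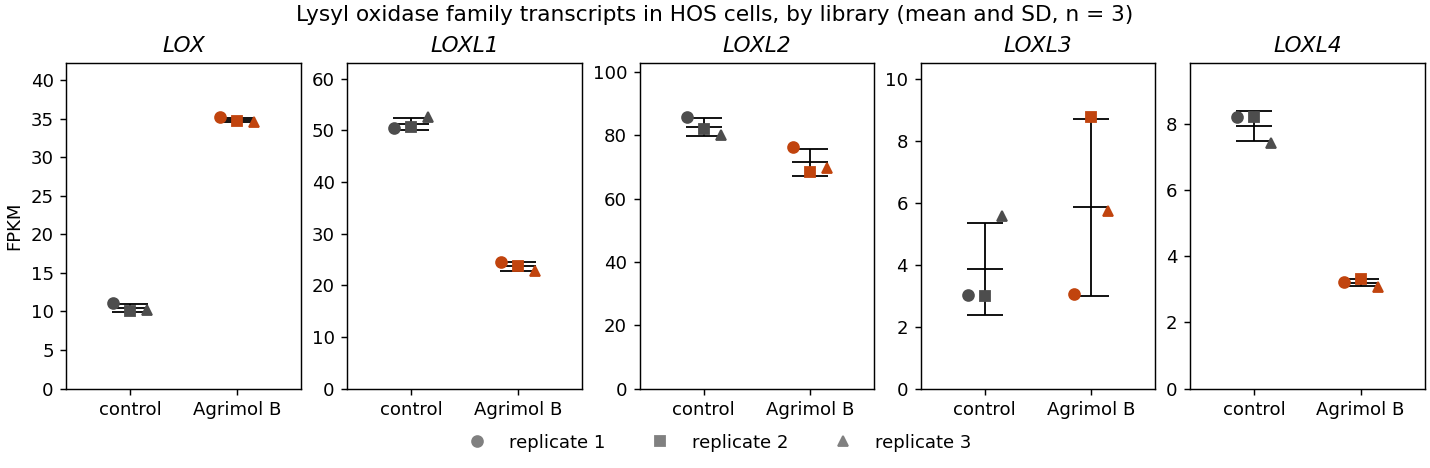
FPKM of each member (vertical axes, each from 0 and each with its own range) in the 3 control and 3 Agrimol B libraries; symbols mark the replicate number, and the black marks are the mean and SD. The groups lie apart for LOX, LOXL1, LOXL2 and LOXL4, as for 62.2% of all tested genes. They overlap for LOXL3, whose values run from 2.99 to 8.76 FPKM.

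The promoters of LOX, the member that rose, and LOXL4, the member with the largest ratio downward, are shown because these genes lie at opposite ends of the family's response. Sequences are from RefSeq (GRCh38.p14), 5′ to 3′ on the minus strand on which both genes lie, and cover only bases before the annotated start that no GENCODE release 29 exon holds. That is chr5:122078361-122078509 for LOX (149 bases) and chr10:98268251-98268444 for LOXL4 (194 bases). Capitals mark ACGTG or GCGTG on either strand, the core letters of the hypoxia response element.
LOX: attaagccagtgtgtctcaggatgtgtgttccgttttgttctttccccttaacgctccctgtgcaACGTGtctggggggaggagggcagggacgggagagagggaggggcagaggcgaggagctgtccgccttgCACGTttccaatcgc
LOXL4: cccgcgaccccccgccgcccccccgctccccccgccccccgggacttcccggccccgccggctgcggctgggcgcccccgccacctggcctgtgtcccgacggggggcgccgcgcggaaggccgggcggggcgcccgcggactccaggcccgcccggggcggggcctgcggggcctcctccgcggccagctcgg

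In the full RefSeq window around the first LOX start (250 bases before to 50 after) the hypoxia core occurred 4 times, at offsets -185, -116, -98 and -42, of which the first 2 lie in the printed stretch. The windows of the other 2 starts listed for LOX overlap each other and held the same 2 cores. Among 34941 windows of that length over the genome, 48.4% held at least 1 such core, 23.1% at least 2 and 4.38% at least 4. No window of LOXL2 was searched. The corresponding windows of LOXL1 and LOXL4 held 0, and the windows of the 2 starts listed for LOXL3 held 0 and 1. CAGAC, the core letters bound by SMAD proteins, was found 2 times in each LOX window, and those that overlap held the same sites. It was found 1 time in the window of LOXL1, 0 times in that of LOXL4, and 0 and 1 times in those of LOXL3. Of all windows, 45.3% held at least 1 and 13.1% at least 2. TGATGNAAN, the amino acid response element, was found in none of the 7 windows searched for LOX, LOXL1, LOXL3 and LOXL4 (3.62% of all windows). GGAATG, the core of TEAD sites, occurred 2 times before one LOXL3 start and in no window of LOX, LOXL1 or LOXL4 (14.0% of all windows). Both strands were searched for each motif, and the motifs were chosen after the members' values were seen. A match describes the letters in a window and is not a binding site, and the data hold no measure of binding.

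LOX, the founding member and a main cross-linker of fibrillar collagen and elastin (chromosome 5, 122063195 to 122078360, minus strand, hg38), stood at 11.1, 10.1 and 10.2 FPKM in the control libraries and at 35.2, 34.7 and 34.6 FPKM with Agrimol B. Every Agrimol B library lay above every control library, and the spread within each group was small beside the gap. Groups without overlap, in either direction, were found for 62.2% of all tested genes. The group means were 10.4 ± 0.536 and 34.8 ± 0.294 FPKM (SD, n = 3 each), a log2 difference of 1.65 (SE 0.0491, 95% interval 1.53 to 1.77, adjusted p = 1.28e-05) on the log2(FPKM + 1) scale. By level, LOX moved from place 6124 to place 2067 among all genes of the table. Without Agrimol B replicate 3 the difference was also 1.65.

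LOXL1, the paralogue closest to LOX in its layout and known for elastic fibre upkeep (chromosome 15, 73925989 to 73952137, plus strand), stood at 50.4, 50.6 and 52.5 FPKM in the controls and at 24.6, 23.8 and 22.7 FPKM with Agrimol B. The groups did not overlap, as for 62.2% of all tested genes, and each was narrow beside the gap between them. The means were 51.2 ± 1.15 and 23.7 ± 0.926 FPKM, and the log2 difference was -1.08 (SE 0.0452, 95% interval -1.19 to -0.97, adjusted p = 3.18e-05). Its annotated span overlaps an antisense transcript, LOXL1-AS1, over 2260 bases. The sources used here do not say whether the authors counted by strand, so reads of the antisense transcript could not be separated from those of LOXL1.

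LOXL4, a member with scavenger receptor domains (chromosome 10, 98247690 to 98268250, minus strand), was a minor transcript that fell. Its values were 8.19, 8.19 and 7.41 FPKM in control libraries and 3.22, 3.31 and 3.08 FPKM with Agrimol B. These values did not overlap between groups, which held for 62.2% of all tested genes. The means were 7.93 ± 0.451 and 3.20 ± 0.116 FPKM, and the log2 difference was -1.09 (SE 0.0605, 95% interval -1.23 to -0.94, adjusted p = 6.81e-05). The pseudocount of 1 compresses a gene at this level, and with 0.1 the log2 difference was -1.28. The LOXL1 to LOXL4 ratio within a library was 6.16 to 7.09 in controls and 7.17 to 7.64 with Agrimol B, ranges that do not overlap; the difference between both falls was not tested. The span of LOXL4 overlaps that of the antisense transcript AL139241.1 over 4553 bases, with the same limit on strand as for LOXL1.

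LOXL2, a cross-linker of type IV and fibrillar collagens (chromosome 8, 23297189 to 23425328, minus strand), was the most abundant member in all 6 libraries. It stood at 85.7, 82.1 and 80.2 FPKM in control libraries and at 76.3, 68.3 and 69.9 FPKM with Agrimol B. The groups lay close together without overlapping, which was also true of 62.2% of all tested genes. The log2 difference was -0.21 (SE 0.0544, 95% interval -0.34 to -0.08, adjusted p = 0.0199). This call rested on single libraries: the adjusted p was 0.0614 with control replicate 1 left out, 0.0506 with control replicate 2 left out, and 0.0595 or 0.0604 with Agrimol B replicate 2 or 3 left out. Over all alternatives it ran from 0.00678 to 0.0614. The annotated span of LOXL2 overlaps that of ENTPD4, a nucleotidase gene on the same strand, over 39546 bases, and ENTPD4 was higher with Agrimol B (17.4 ± 0.84 to 21.5 ± 0.23 FPKM). On the opposite strand it overlaps the transcript AC090197.1 over 29955 bases, with the same limit on strand as for LOXL1.

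LOXL3, a member required for normal palate and cartilage formation (chromosome 2, 74532414 to 74555690, minus strand), was at 3.02, 2.99 and 5.56 FPKM in control libraries and at 3.05, 8.76 and 5.74 FPKM with Agrimol B. Control replicate 3 lay with Agrimol B replicate 3, and Agrimol B replicate 1 lay with control replicates 1 and 2. The log2 difference was 0.45 with a 95% interval from -0.43 to 1.32 (adjusted p = 0.335), an interval that holds falls as well as rises. The residual SD of LOXL3 (0.536 on the log2 scale) exceeded that of 98.3% of tested genes, whereas those of the other members lay between the 14.4 and 31.6 percentiles. Leaving out 1 library moved its log2 difference between 0.15 (without Agrimol B replicate 2) and 0.78 (without Agrimol B replicate 1). LOXL3 overlaps the adaptor gene DOK1 on the opposite strand over 6665 bases and the protease gene HTRA2 over 935 bases. DOK1 also varied, with 4.72, 10.4 and 6.67 FPKM in the controls and 7.73, 10.5 and 7.88 FPKM after treatment (adjusted p = 0.403), and a part of the overlap in the spread of LOXL3 was not tested.

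**Figure D2:**
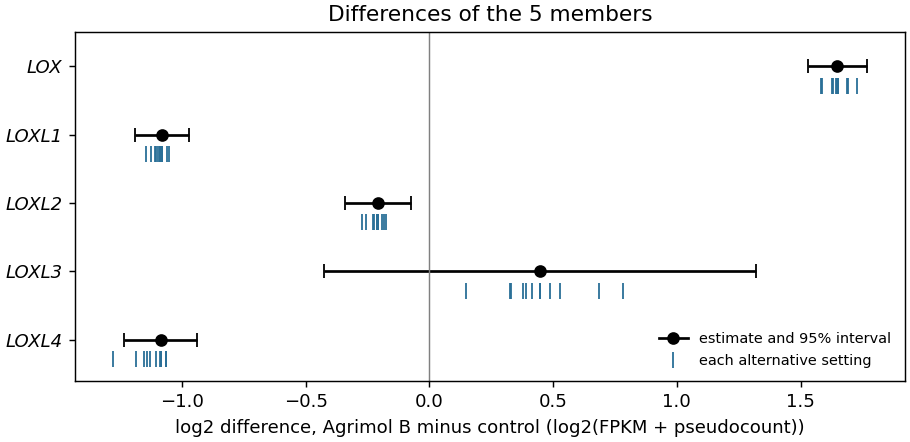
Log2 difference, Agrimol B minus control, of each member (circle) with its 95% interval from limma, and below each circle a tick for every alternative setting. LOX lies at 1.65, LOXL1 and LOXL4 near -1.1, LOXL2 at -0.21 and LOXL3 at 0.45 with an interval across 0; every tick of a member lies on the same side of 0 as its circle.

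These opposite changes altered the makeup of the family's transcripts more than their sum. FPKM is scaled to length, and on that basis members were added and compared. The annotation behind the values is unknown, and reads of transcripts that overlap members could not be separated, which limits comparisons of level. The 5 members together came to 156 ± 2.22 FPKM in the controls and 139 ± 3.13 FPKM with Agrimol B, a ratio of 0.891 (0.85 with median-ratio scaling of the libraries). LOX supplied 6.52% to 6.98% of that sum in control libraries and 24.7% to 25.4% with Agrimol B. LOXL1 supplied 31.8% to 33.7% and then 16.7% to 17.3%. LOXL2 remained about as large a part, with 51.5% to 54.1% and 49.2% to 53.6%, and LOXL4 went from 4.75% to 5.32% down to 2.26% to 2.39%. These shares are descriptions, with no test of their own.

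In control libraries the order by level was LOXL2, LOXL1, LOX, LOXL4 and LOXL3, with no overlap between neighbours over the 3 libraries. With Agrimol B it was LOXL2, LOX, LOXL1, LOXL3 and LOXL4, and the last 2 overlapped, since LOXL3 ran from 3.05 to 8.76 FPKM around the 3.08 to 3.31 FPKM of LOXL4. LOX and LOXL1 exchanged places. The LOX to LOXL1 ratio within a library, which a single scaling factor per library cannot change, was 0.194 to 0.219 in control and 1.43 to 1.52 in Agrimol B libraries, and the LOX to LOXL4 ratio was 1.23 to 1.37 and 10.5 to 11.2.

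**Figure D3:**
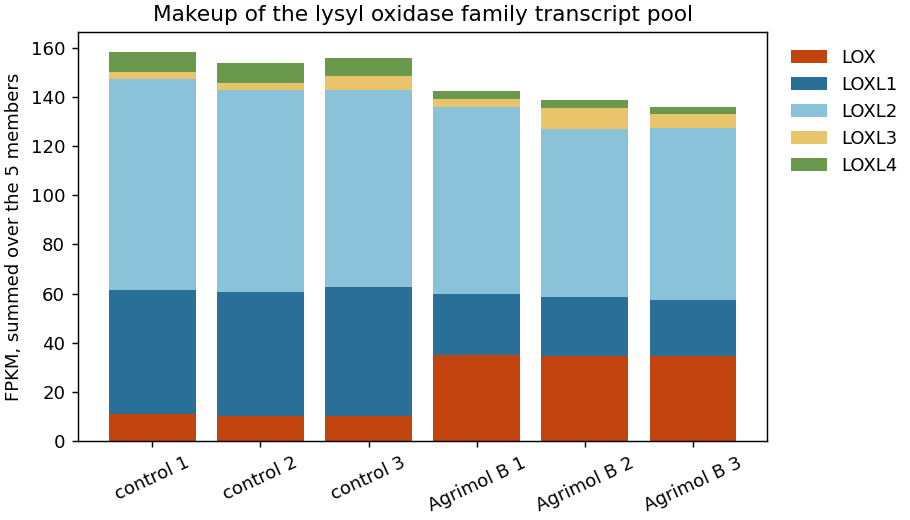
Stacked FPKM of the 5 members in each library (vertical axis from 0, in FPKM). The total is slightly lower in the 3 Agrimol B libraries, the LOX segment is larger (24.7% to 25.4% of the sum against 6.52% to 6.98%), and the LOXL1 and LOXL4 segments are smaller.

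Lysyl oxidases act with a set of other genes, which were counted in 10 lists chosen for their roles. Each count is to be read against the 30.6% of tested genes that were higher and 21.4% that were lower, and each median against 0.065 (log2) over all tested genes. Adjusted p-values are over all genes tested.

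Most tested chains of the main substrate fell. Of 9 tested fibrillar collagen chains, 7 were lower, 1 was higher and 1 was not called, with a median log2 difference of -0.795. COL3A1, the type III chain, went from 94.5, 91.1 and 93.3 FPKM to 19.9, 18.3 and 18.9 FPKM (adjusted p = 5.94e-06). COL1A2, the second chain of type I collagen, went from 74.2, 69.1 and 68.6 FPKM to 27.7, 23.7 and 26.3 FPKM (adjusted p = 4.54e-05). COL11A1 fell 3.44-fold (adjusted p = 2.75e-05), and COL1A1, the most abundant collagen transcript of the list, was 1.43-fold lower (419 ± 14 and 293 ± 12 FPKM, adjusted p = 0.000256). The one that rose was COL5A1, from 32.4 ± 0.80 to 49.7 ± 1.7 FPKM (adjusted p = 0.000153), named after its values were seen. LOX was higher in the same libraries in which most of the tested collagen chains were lower. Of 3 tested type IV chains, substrates of LOXL2, COL4A1 fell 1.55-fold (adjusted p = 0.000137) and the other two were not called. Of these COL4A2, named after its values were seen, which pairs with COL4A1 in the same trimer, was at 73.3 ± 5.9 and 74.8 ± 1.9 FPKM (adjusted p = 0.712).

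Elastin itself, the other classic substrate, was near 0: ELN was listed at 0, 0 and 0.0787 FPKM in the controls and at 0.0105, 0.00749 and 0 FPKM after treatment. Of the other proteins of elastic fibres, MFAP4 and MFAP5, also named after their values were seen, missed the filter on the mean and were not tested. MFAP4 was at 1.30, 1.12 and 1.68 FPKM in the controls and at 0.139, 0.301 and 0.333 FPKM with Agrimol B. MFAP5 was at 0.564 ± 0.266 and 0.147 ± 0.096 FPKM. Of the 13 tested, 7 were lower and 4 higher (median -0.256). The fibulin EFEMP1 fell 2.17-fold (adjusted p = 0.003), EMILIN1 fell 1.92-fold from 25.7 ± 1.1 FPKM (adjusted p = 8.94e-05) and FBLN1 fell 1.59-fold (adjusted p = 0.000111). FBLN5 and EFEMP2, fibulins known to bind lysyl oxidases and bring them to elastin, were modestly lower, by 1.29-fold and 1.20-fold (adjusted p = 0.0366 and 0.0413). The fibrillin FBN2 was higher, 51.8 ± 1.2 to 79.6 ± 1.2 FPKM (adjusted p = 8.17e-05), while FBN1 was at 15.2 and 15.3 FPKM. FBLN5, EFEMP2, FBN2 and FBN1 were named after their values were seen.

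Pro-LOX is cut to its active form by BMP1 and related proteases, with help from matrix proteins. Of 7 tested genes of the list for this step, 4 were lower and 0 higher (median -0.392). The list is wider than pro-LOX cleavage and also holds genes of procollagen processing, so these figures are not for LOX activation alone. Of the latter genes, ADAMTS3 was 1.62-fold lower (adjusted p = 0.00605) and PCOLCE2 was not called (adjusted p = 0.0754). Both were named after their values were seen. BMP1, the main protease, stood at 16.0, 17.3 and 16.6 FPKM in the controls and at 16.6, 15.9 and 14.8 FPKM after treatment. Those values overlap (log2 difference -0.08, 95% interval -0.22 to 0.07, adjusted p = 0.321). The difference was -0.14 with median-ratio scaling and -0.16 with quantile normalization (adjusted p = 0.0986 and 0.0604), and -0.03 without Agrimol B replicate 3 and -0.05 without control replicate 2 (adjusted p = 0.653 and 0.589). The related protease TLL1 fell 1.89-fold from 6.03 ± 0.28 FPKM (adjusted p = 0.000199). PCOLCE, which enhances BMP1 cleavage of procollagen, fell from 180, 178 and 177 FPKM to 93.3, 89.1 and 96.4 FPKM (adjusted p = 3.32e-05), and the matricellular protein THBS1 fell 1.91-fold (adjusted p = 6.58e-05). Fibronectin, a scaffold for this cleavage named after its values were seen, was not called (FN1, 143 ± 6.9 and 141 ± 4.9 FPKM, adjusted p = 0.743). Periostin (POSTN), another scaffold also named after its values were seen, was under 0.2 FPKM in every library and was not tested.

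Copper reaches lysyl oxidases in the secretory pathway through an importer, a chaperone and a pump. Of 11 tested genes of the copper list, 3 were higher and 1 lower (median 0.132). The list is wider than this route and also holds CCS, COX17, SCO1, SCO2 and SLC33A1, named after their values were seen. CCS was 1 of the 3 higher genes (1.15-fold, adjusted p = 0.0424). The importer SLC31A1, also called CTR1, stood at 12.4, 13.2 and 12.3 FPKM in control libraries and at 32.8, 34.7 and 33.9 FPKM with Agrimol B. These groups lie far apart, and the rise of 2.68-fold (log2 difference 1.35, adjusted p = 1.80e-05) was the largest change on the list. The chaperone ATOX1, which carries copper to the pump, was 1.22-fold lower (adjusted p = 0.00384), and COMMD1, a partner of copper pumps, was 1.27-fold higher (adjusted p = 0.00753). ATP7A, the pump that loads lysyl oxidases, was low and was not called, at 1.55 ± 0.059 and 1.63 ± 0.21 FPKM (log2 difference 0.04, adjusted p = 0.695, with a sign that turned under median-ratio scaling, quantile normalization and without Agrimol B replicate 1). Of the copper amine oxidases outside the family, only AOC2 was tested, and it was not called (adjusted p = 0.223; named after its values were seen).

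Before secretion, collagen lysines are hydroxylated and glycosylated, which decides the kind of cross-link that lysyl oxidases can form. Of 17 tested genes of this list, 5 were higher and 4 lower (median 0.043). The list also holds prolyl hydroxylases and collagen folding factors, so these figures are not for lysine modification alone. The lysyl hydroxylase PLOD2, which acts on the telopeptide lysines, fell from 30.7, 30.6 and 27.9 FPKM to 20.2, 19.5 and 20.2 FPKM (adjusted p = 0.000381), and PLOD1, which acts on the helix, fell 1.56-fold (adjusted p = 0.000155). PLOD3, named after its values were seen, was 1.30-fold higher (adjusted p = 0.00385). The galactosyltransferases moved apart: COLGALT1 fell 1.63-fold from 44.3 ± 0.64 FPKM (adjusted p = 0.000104), and COLGALT2, far lower in level, rose 1.86-fold from 1.66 ± 0.15 FPKM (adjusted p = 0.00112).

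LOX family genes are known targets of hypoxia-inducible factors and of TGF-beta signalling. Of 9 tested hypoxia factors and sensors, 3 were higher and 2 lower (median 0.114). HIF1A was lower, at 88.7, 84.8 and 79.9 against 59.8, 59.7 and 61.4 FPKM (adjusted p = 0.000486). EPAS1, which encodes HIF-2 alpha, was 1.44-fold higher (adjusted p = 0.0183), but this call was lost without Agrimol B replicate 1 or 2 (adjusted p = 0.054 and 0.052). Its control values were uneven, at 20.4, 28.8 and 28.8 FPKM. Without control replicate 1 the log2 difference of EPAS1 was 0.37 (adjusted p = 0.003), against 0.53 with all libraries. EGLN3, an oxygen sensor that is itself induced by these factors, was 2.40-fold lower (adjusted p = 0.0005). Of 12 tested genes of TGF-beta signalling (ligands, receptors, SMADs and the co-repressors SKI and SKIL), 5 were lower and 1 higher (median -0.21). SMAD6, an inhibitory SMAD, fell 3.78-fold (adjusted p = 7.42e-05), so the counts mix genes of opposite roles. The ligand TGFB2 fell from 4.53, 4.38 and 4.41 to 2.12, 1.43 and 1.90 FPKM (adjusted p = 0.000574). The signal carrier SMAD3 fell 2.00-fold from 23.3 ± 0.69 FPKM (adjusted p = 0.000258). The 1 higher gene was SMAD4 (1.87-fold, adjusted p = 0.0184), named after its values were seen. TGFB1 was not analysed here.

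LOXL2 and LOXL3 have been described as partners of the transcription factor SNAI1 in mesenchymal transition. Of 8 tested genes of that programme, 3 were lower and 1 higher (median -0.062). SNAI1 fell from 2.19, 2.33 and 2.09 FPKM to 1.20, 1.20 and 1.34 FPKM (log2 difference -0.51, or -0.78 with a pseudocount of 0.1; adjusted p = 0.00111). SNAI2 was not called (3.54 ± 0.33 and 3.19 ± 0.15 FPKM, adjusted p = 0.224); its log2 difference was -0.12, with -0.19 under quantile normalization and -0.06 without control replicate 2. ZEB2 rose 1.45-fold (adjusted p = 0.000731). Vimentin, the intermediate filament of mesenchymal cells, fell 1.30-fold (VIM, log2 difference -0.38, adjusted p = 0.00015; -0.23 and 0.00134 with quantile normalization).

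**Figure D4:**
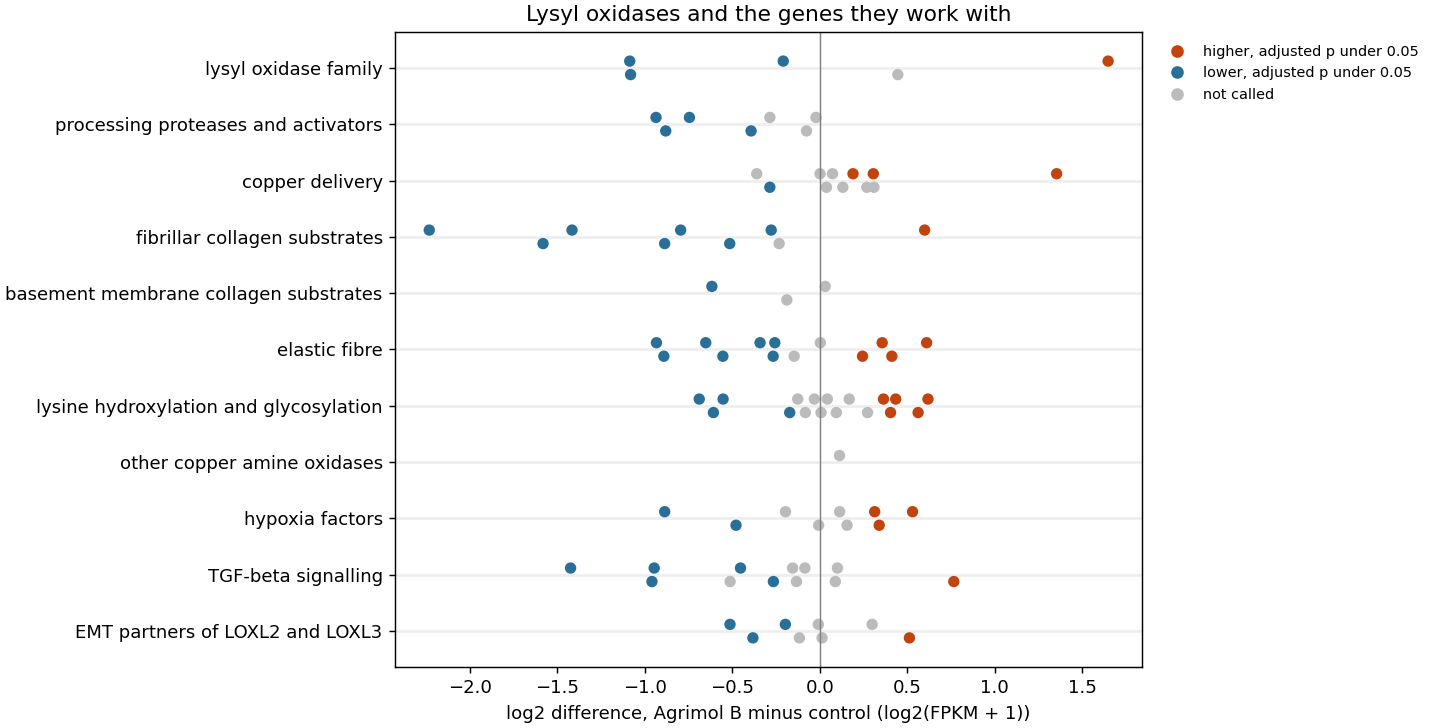
Log2 difference (Agrimol B minus control, log2(FPKM + 1)) of every tested gene of the lysyl oxidase family and of the 10 lists, 1 point per gene, coloured by its call. LOX at 1.65 and SLC31A1 at 1.35 lie farthest to the right, and most fibrillar collagens lie to the left of 0 (median -0.795).

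Genes that overlap a member or lie nearest to it on either side were taken by position. Of the 13 that were tested, 5 were higher, 2 were lower and 6 were not called, a share close to the 52.0% called among all tested genes. SRFBP1, whose span overlaps LOX on the opposite strand over 12376 bases, was higher like LOX but by less, from 8.61 ± 0.57 to 10.8 ± 0.18 FPKM, or 1.25-fold (adjusted p = 0.0075), against 3.34-fold for LOX. STOML1, 26785 bases from LOXL1, was not called (adjusted p = 0.402). R3HCC1L, which lies 2792 bases from LOXL4 on the other strand, was 1.58-fold higher (adjusted p = 0.00116) while LOXL4 fell. R3HCC1, 909 bases from LOXL2, was not called (adjusted p = 0.402). Of the neighbours of LOXL3, AUP1 was 1.35-fold higher (adjusted p = 0.00942) and M1AP was 1.38-fold lower (adjusted p = 0.0176).

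For each member, the tested genes with the most similar profile were taken as those with the smallest root mean square difference of centred log2(FPKM + 1) values over the 6 libraries. For LOX these were C6orf48 (0.0383) and HRK, which promotes apoptosis (0.0402). For LOXL1 they were TIMP3, an inhibitor of metalloproteinases (0.0224), and the helicase BRIP1 (0.0274). For LOXL4 they were the secreted or membrane proteins VASN (0.0441) and GAS6 (0.0466), and for LOXL2 they were TCF24 (0.0146) and RBBP6 (0.0207). The nearest profiles to LOXL3, AP3M2 and ANKIB1, were far less alike (0.213 and 0.216). With 2 groups of 3 libraries, such likeness mostly reflects a group difference of similar size.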

How the data were processed

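The authors deposited FPKM values of the 6 libraries in 1 table. HISAT, Trimmomatic, cutadapt, FastQC and the build hg38 are listed, without versions or roles, per the submitters' processing notes. Per the labels' protocols, the library kit marks strand. What computed FPKM, with which annotation and whether by strand, is unknown from the sources used here. Control columns carry the letters of the control descriptions in the other order and were matched by letters and number. Relative depth was read from ratios of values under 0.05 FPKM.

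The 12143 of 16376 genes whose mean reached 1 FPKM were tested on log2(FPKM + 1) with limma 3.58.1 in R 4.3.3 (group term, variance trend, two-sided), Benjamini-Hochberg adjustment over all of them and a threshold of 0.05. Folds are ratios of mean FPKM. Positions are from GENCODE release 29. Only the limma fit was tested on simulated data, in which far fewer genes were changed than were called here. Alternatives were 2 other pseudocounts, no filter and a filter of 5 FPKM, 2 scalings, no variance trend, a replicate block and leaving out each library.

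Named were the members, up to 3 called genes per list with the largest differences, 8 genes fixed by role, and 2 genes of nearest profile per member. Any other gene is said to have been named after its values were seen, except markers and genes picked by position. The members and lists were chosen with earlier results of these data known. Tables and tests outside limma were made in Python 3.11.15 (scipy 1.17.1, numpy 2.4.6, pandas 2.3.3).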

Additional observations from a re-analysis of the deposited data

How the results depend on the processing

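LOX, LOXL1 and LOXL4 kept their direction and their call in all 14 alternative fits, with log2 differences of 1.58 to 1.73, -1.15 to -1.05 and -1.28 to -1.06. LOXL2 kept its direction (-0.27 to -0.18) and its call in 10 of 14; when single libraries were left out, its log2 difference ran from -0.26 to -0.18. LOXL3 was called in none of its 13 alternatives (adjusted p 0.079 to 0.734) and had no value with the filter of 5 FPKM, which its mean misses. The exact permutation test gave p = 0.1 for each of LOX, LOXL1, LOXL2 and LOXL4, the smallest that 3 against 3 libraries allow, so it could not pass the threshold. The ratio of the family sums was 0.891, and 0.85 with median-ratio scaling. Same-numbered libraries of the groups did not deviate together (correlations 0.037, -0.006 and -0.015), so the numbers were not taken to pair them; with a replicate block 5776 genes were called against 6311 and no member's call changed; with balanced groups a block cannot alter the log2 differences (1.65 for LOX). Of 551 alternative values for the 40 other genes named by rule, 539 kept direction and call, 8 lost and 1 gained the call, and 3 turned sign. The last were those of ATP7A (-0.0024 with median-ratio scaling, -0.0046 with quantile normalization, -0.025 without Agrimol B replicate 1, with 0.0707 at most when another library was left out), a gene that was never called. Without Agrimol B replicate 3, an alternative chosen after seeing the data, the list counts moved by at most 1 gene. Without read counts, the counting error of low values such as those of LOXL3 and ATP7A is unknown.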
